A study of Mus musculus with 34 samples.

Results

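The TNF superfamily genes measured here were chosen by name, as every gene whose symbol is Tnfsf or Tnfrsf followed by a number and an optional lower-case letter. This rule used no measured value. It found 32 of the 32098 genes in the data: 11 ligands (Tnfsf), 20 receptors (Tnfrsf) and Tnfsf13os, a non-coding gene that runs antisense to Tnfsf13. The data are RNA-seq libraries of the stromal vascular fraction (SVF), the mixed pellet of immune cells, progenitors, fibroblasts and vessel cells that remains when digested visceral white fat is spun and the floating adipocytes are removed. All mice were male C57BL/6J, labelled as the strain C57BL/6, with no genetic change. From 6 weeks of age they were fed control chow (CHOW) or a high fat diet with 60% of its calories from fat (HFD). The CHOW groups held 4 libraries at 8 weeks on the diet, 5 at 20 weeks and 7 at 34 weeks, and the HFD groups held 6 libraries at each time. All animals were fasted before collection, so every value describes the fasted state.

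Values are in TPM, a level scaled by transcript length in which every library has the same total, so levels of different genes can be compared. Differences are given on the log2(TPM + 1) scale, which understates the change of genes near 1 TPM. A gene was called when its p, adjusted over all genes tested in the comparison, was under 0.05 in limma. The labels number the libraries but do not say that each came from its own mouse, so the p-values measure the spread between libraries. The 8 and 20 week libraries were quantified in one table and the 34 week libraries in another, and levels were tested only within a table. Depth cannot be read from TPM, and the libraries held 13200 to 17213 genes at 1 TPM or more. Some libraries stood apart. HFD 8 week library 3 held seminal vesicle transcripts summing to 123060 TPM. Hemoglobin transcripts, which lower the TPM of all other genes as they grow, summed to 267366 TPM in HFD 8 week library 6 and 129729 TPM in CHOW 20 week library 5, against 12596 to 30381 TPM in the HFD 20 week libraries. Germ cell transcripts reached 13196 TPM among the HFD 20 week libraries (libraries 3, 4 and 5 were left out in an alternative fit) and 5748 TPM among those of HFD 34 weeks. Among the CHOW 34 week libraries the adipocyte list summed to 3031 to 70596 TPM, although the floating adipocytes had been removed.

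Ligands of this family are mostly membrane proteins that assemble as trimers, and some are shed into the extracellular space. Their receptors carry cysteine-rich repeats outside the cell and, inside it, either recruit TRAF adaptors that switch on NF-kB or carry a death domain that can start caspase signalling. Several pairs act as costimulatory signals between antigen-presenting cells and T cells, and a few receptors are decoys that bind a ligand without signalling. In obese fat the founding ligand, TNF, is best known as a product of macrophages that opposes insulin signalling.

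The members lie on 11 chromosomes (coordinates are those of mm10), and 9 of them, 7 receptors among them, are on chromosome 4. Tnfrsf4 (chr4:156013843-156016612) and Tnfrsf18 (chr4:156026164-156028895) sit 9.6 kb apart on the same strand. Tnfsf9 (chr17:57105325-57107757) and Tnfsf14 (chr17:57189492-57194177) are 81.7 kb apart on opposite strands. Tnfsf4 and Tnfsf18 are 76.2 kb apart on chromosome 1. In RefSeq's GRCm38.p6 sequences, 24 members had 28 windows holding the 250 bases before an annotated start. A motif of the AP-1 type (TGANTCA, searched on both strands, where N is any base) was in 5 of these 28 windows and in 6.75% of all 32851 windows of that length. An NF-kB type motif (GGNNTTTCC, both strands) was in 3 of them and in 4.93% of all windows, and a RUNX type motif (TGTGGT, both strands) was in 3 of them and in 14.045% of all. The matched letters did not overlap in the windows printed here. The first lines below show the upstream stretches, trimmed to bases outside annotated exons, of the neighbours Tnfrsf4 and Tnfrsf18, which were both lower on HFD at 20 weeks and whose windows held none of the motifs. Tnfsf14 and Tnfrsf25 follow, with their matches in capitals (AP-1 type in Tnfsf14, NF-kB type and RUNX type in Tnfrsf25). The last lines are short excerpts around the NF-kB type and AP-1 type matches at the second annotated start of Tnfrsf9.
Tnfrsf4, chr4:156013611-156013694, plus strand: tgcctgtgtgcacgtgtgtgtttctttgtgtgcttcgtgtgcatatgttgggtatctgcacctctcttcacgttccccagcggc
Tnfrsf18, chr4:156026072-156026163, plus strand: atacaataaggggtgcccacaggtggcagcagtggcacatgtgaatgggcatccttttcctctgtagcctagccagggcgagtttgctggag
Tnfsf14, chr17:57194182-57194431, minus strand: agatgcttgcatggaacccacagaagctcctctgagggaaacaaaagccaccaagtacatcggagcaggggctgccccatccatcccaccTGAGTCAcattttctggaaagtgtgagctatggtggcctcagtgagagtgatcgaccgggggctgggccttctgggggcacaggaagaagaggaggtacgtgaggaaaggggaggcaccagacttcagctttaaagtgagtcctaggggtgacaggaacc
Tnfrsf25, chr4:152115684-152115933, plus strand: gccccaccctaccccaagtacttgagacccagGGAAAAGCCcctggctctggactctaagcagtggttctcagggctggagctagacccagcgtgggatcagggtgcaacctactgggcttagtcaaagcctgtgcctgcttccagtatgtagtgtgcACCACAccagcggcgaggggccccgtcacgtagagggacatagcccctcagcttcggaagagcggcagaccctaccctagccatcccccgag
Tnfrsf9, chr4:150927949-150927973, plus strand: agcagctgGGGATTTCCcaggaggc
Tnfrsf9, chr4:150927976-150927998, plus strand: tgctcagtTGAGTCAcaggtcct

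The levels of the members spanned a wide range. Over all 34 libraries, the median was above 100 TPM for 4 members, from 10 to 100 TPM for 6, from 1 to 10 TPM for 17 and below 1 TPM for 5, and 18 members were at 1 TPM or more in every library. Tnfrsf1a, the TNF receptor with a death domain, had the highest pooled median at 247 TPM (144.6 to 394). Tnfrsf12a, the receptor of TWEAK, followed at 242 TPM (52.6 to 439). Tnfrsf1b, the TNF receptor without a death domain, was at 191 TPM (32.8 to 579), and the ranges of these 3 receptors overlapped. Tnfsf9, the ligand of 4-1BB, had the highest pooled median among the ligands at 121 TPM (24.1 to 755), and Tnfsf12, which encodes TWEAK, came next at 77.0 TPM (28.6 to 126). Costimulatory receptors known from T cells were far lower, with Tnfrsf18 at 8.56 TPM, Tnfrsf4 at 6.65 TPM and Tnfrsf9 at 4.28 TPM. At the bottom, Tnfrsf19 had a median of 0.167 TPM and was listed at 0 in 6 libraries, and Tnfsf15 had a median of 0.239 TPM. These pooled medians combine libraries of both tables, and the order differed between groups. Tnfrsf12a had the highest group median on both diets at 8 weeks and on CHOW at 20 weeks (424 TPM), Tnfsf9 on HFD at 20 weeks (593 TPM), and Tnfrsf1a on both diets at 34 weeks (206 TPM on CHOW and 203 TPM on HFD).

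**Figure D1:**
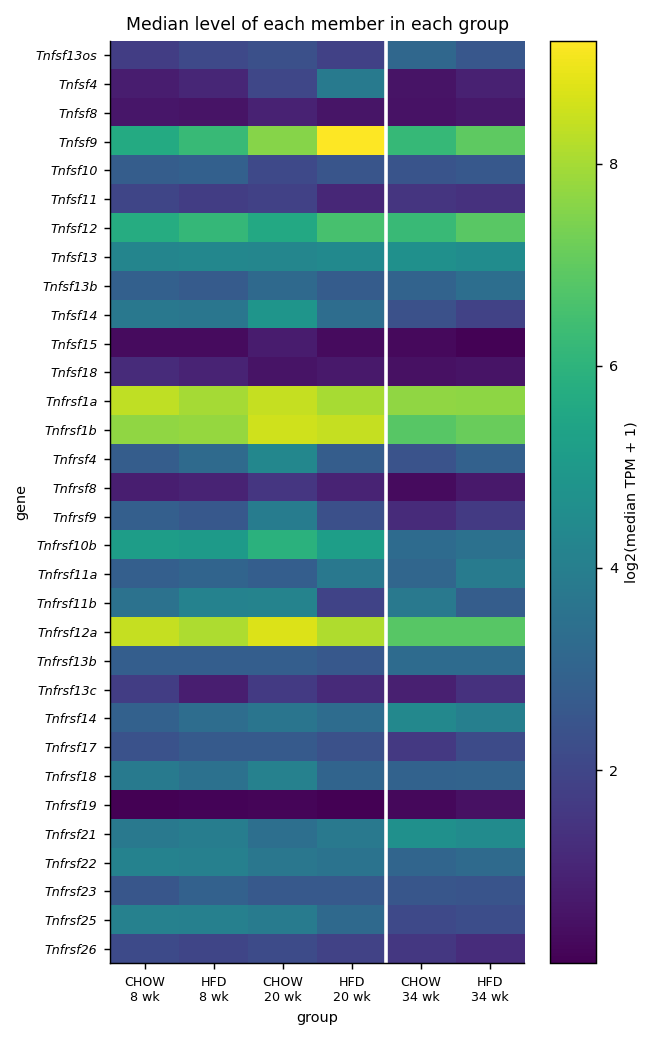
Median level of each of the 32 members in each of the 6 groups, as colour on the log2(median TPM + 1) scale, with genes as rows and diet-time groups as columns. Tnfrsf1a, Tnfrsf12a, Tnfrsf1b and Tnfsf9 form the bright rows, and the white line separates the 34 week libraries, which came from another table.

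The main contrast was HFD against CHOW at 20 weeks. The family divided at this time. The ligands OX40L (Tnfsf4), 4-1BBL (Tnfsf9) and TWEAK (Tnfsf12) and the receptor RANK (Tnfrsf11a) were higher on HFD. The costimulatory receptors OX40 (Tnfrsf4), 4-1BB (Tnfrsf9) and GITR (Tnfrsf18), the decoy receptor osteoprotegerin (Tnfrsf11b), and the ligands RANKL (Tnfsf11) and LIGHT (Tnfsf14) were lower. In all, 10 of the 30 members tested were called (33.3%), against 14.3% of all 16808 genes tested. The 4 higher members compare with a background of 9.32% of genes called higher, and the 6 lower ones with 4.99% called lower. The median difference over the tested members was -0.28 on the log2 scale, and it was 0.08 over all genes tested. Single libraries of the groups did not overlap for 9 of the 30 members (30.0%), against 9.19% of all genes, and 7 of these 9 were among the called members. The other two were Tnfrsf1a and Tnfrsf13c, both lower on HFD. After rescaling without the hemoglobin, germ cell and seminal vesicle genes 11 members were called, 4 higher and 7 lower, and without CHOW library 5 there were 7, 2 higher and 5 lower. The shares of all genes called in these fits are not given here, so the shifts are not shown to be particular to the family.

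Cell type lists were read in the same contrast, in which 9.32% of all genes were called higher and 4.99% lower. Of the 10 lipid-associated macrophage genes, 9 were called higher on HFD at 20 weeks, and their summed level was 11849 to 19335 TPM in the HFD libraries and 3731 to 8216 TPM in the CHOW libraries. Of the 7 regulatory T cell genes, 4 were called lower (Foxp3, Il2ra, Ctla4 and Klrg1), and the list summed to 67.4 to 126 TPM on HFD and 80.9 to 156 TPM on CHOW. Foxp3, the defining factor of these cells, averaged 0.670 TPM in the HFD group against 3.49 TPM in the CHOW group. All 7 mesothelial genes were called lower, with sums of 64.8 to 205 TPM on HFD and 210 to 704 TPM on CHOW. Of 10 macrophage genes 5 were called higher, of 10 T cell genes 3 were called lower, and of 10 adipocyte genes 1 was called higher and 5 lower. Of 8 mast cell genes 7 were called higher, and all 4 hemoglobin genes were called lower. Of 10 germ cell genes 2 were called higher, and of 9 progenitor and fibroblast genes 1 was called higher and 3 lower. Among 7 plasma cell genes 2 were called in each direction. One gene was called lower among 9 dendritic cell and among 6 neutrophil genes, and one higher among 9 B cell and among 8 NK and cytotoxic genes. Single calls in lists this short are not read as a change of these cell types. No endothelial, pericyte, seminal vesicle or epididymis gene was called. In the lipid-associated macrophage, regulatory T cell and mesothelial lists no gene was at 0 in any 20 week library. With the lipid-associated macrophage score as a covariate, no member was called at 20 weeks. With the macrophage, adipocyte, regulatory T cell or mesothelial score in its place, 3, 2, 1 and 1 members were called. The share of all genes called under each score is not given here, so a loss of calls particular to the family is not shown. In a mixed pellet, fewer cells of a type and less RNA per cell cannot be told apart, and the part of cell composition in the differences described next was not tested beyond these fits.

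**Figure D2:**
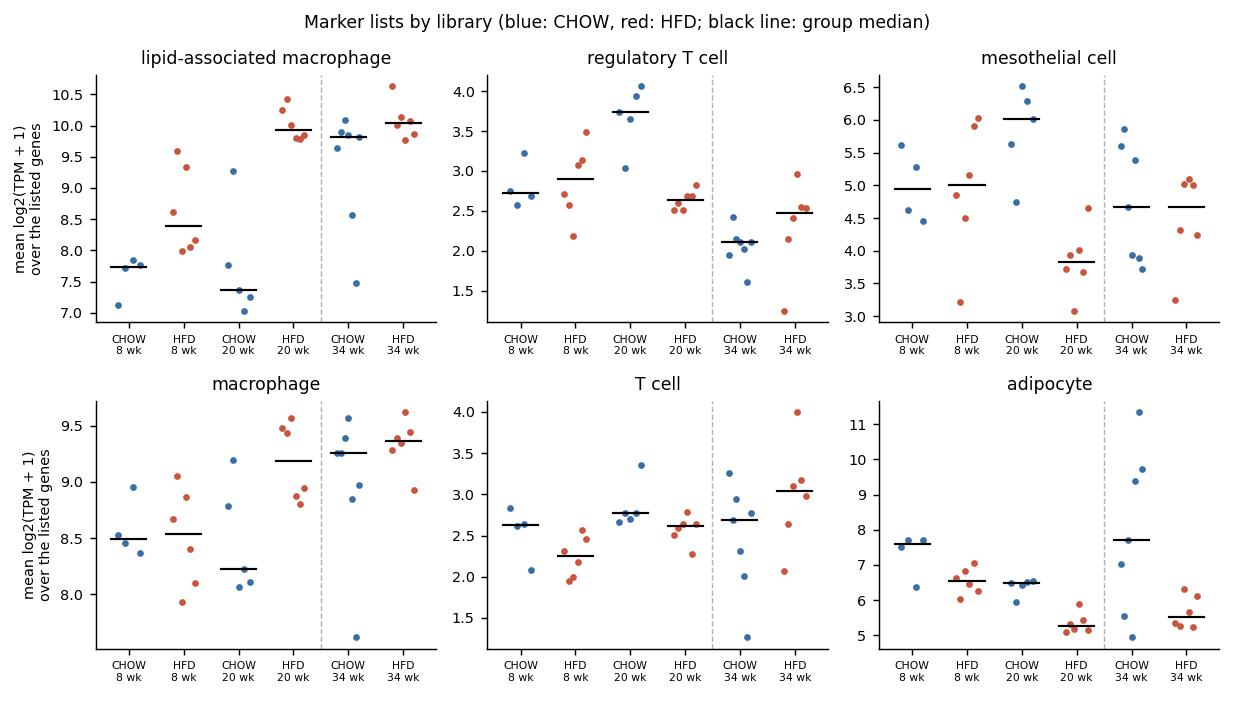
Mean log2(TPM + 1) over the genes of 6 marker lists in each library (points), with the group median as a black line, CHOW in blue and HFD in red. At 20 weeks the lipid-associated macrophage list was higher in every HFD library than in every CHOW library, and the regulatory T cell and mesothelial lists were lower in every HFD library than in every CHOW library.

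OX40L, encoded by Tnfsf4 (chr1:161395409-161418410), is presented by activated antigen-presenting cells and binds OX40, encoded by Tnfrsf4, on activated and regulatory T cells. On CHOW at 20 weeks, Tnfsf4 was at 2.41, 5.87, 3.11, 2.42 and 3.59 TPM. On HFD it ranged from 12.6 to 30.96 TPM around a median of 13.5 TPM. Every HFD library was above every CHOW library, by 2.00 ± 0.30 (SE) on the log2 scale (adjusted p = 0.00026), the largest positive difference among the members in this contrast. CHOW library 2, the highest of its group for Tnfsf4, was also the CHOW library with the highest lipid-associated macrophage sum. The receptor went the other way. Tnfrsf4 was at 18.8, 10.6, 20.4, 17.1 and 25.3 TPM on CHOW and at 2.89 to 10.8 TPM on HFD, with a median of 5.85 TPM. The groups met at one point only, where HFD library 4 (10.8 TPM) lay just above CHOW library 2 (10.6 TPM). Tnfrsf4 fell by 1.495 ± 0.29 on the log2 scale (adjusted p = 0.00234). With the regulatory T cell score as a covariate the difference of Tnfrsf4 was -0.31 (adjusted p = 0.752), and with the lipid-associated macrophage score the difference of Tnfsf4 was 1.40 (adjusted p = 0.286).

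In the other groups the diets overlapped for each gene, and the receptor's transcript exceeded the ligand's. Tnfsf4 was at 0.132 to 1.85 TPM on CHOW and 0.115 to 2.12 TPM on HFD at 8 weeks, and at 0 to 1.94 TPM on CHOW and 0.547 to 2.25 TPM on HFD at 34 weeks, where it was too low to test. Tnfrsf4 at 8 weeks ranged from 4.74 to 12.0 TPM on CHOW and from 4.03 to 13.6 TPM on HFD. From 8 to 20 weeks it changed by 1.28 ± 0.33 on CHOW (adjusted p = 0.0738) and by -0.46 ± 0.28 on HFD (adjusted p = 0.299). Neither change was called. Tnfrsf4 at 34 weeks ranged from 1.48 to 8.06 TPM on CHOW and from 1.49 to 15.6 TPM on HFD, with overlapping groups. The ratio of Tnfsf4 to Tnfrsf4 TPM within a library puts both genes on one scale. At 20 weeks it was 0.129 to 0.552 on CHOW (median 0.142) and 1.23 to 6.99 on HFD (median 2.86). In the remaining groups its median was between 0.0882 and 0.136. The HFD 20 week libraries were thus the only ones in which the ligand's transcript exceeded the receptor's.

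4-1BBL, encoded by Tnfsf9, is the matching ligand of 4-1BB, encoded by Tnfrsf9 (chr4:150914562-150946102), an inducible costimulatory receptor of activated T and NK cells. Tnfsf9 was at 271, 509, 188, 188 and 139 TPM on CHOW at 20 weeks. On HFD the range was 535 to 755 TPM with a median of 593 TPM. No library of one group entered the range of the other, although CHOW library 2 (509 TPM) came close, and Tnfsf9 was higher on HFD by 1.41 ± 0.39 (adjusted p = 0.0213). That call was lost without CHOW library 3, 4 or 5 (adjusted p = 0.0557, 0.0584 and 0.0704), and without the libraries that held seminal vesicle or germ cell transcripts (0.0659). An antisense gene, Gm11110, shares 12.9% of the 31-base words of Tnfsf9 on the opposite strand and was at 0 to 2.62 TPM. With the lipid-associated macrophage score as a covariate the difference changed sign, to -0.64 (adjusted p = 0.517). Tnfrsf9 was at 9.78, 8.81, 14.3, 15.03 and 17.1 TPM on CHOW and at 1.64 to 6.53 TPM on HFD, with a median of 3.92 TPM. The highest HFD value was below the lowest CHOW value, and Tnfrsf9 was lower on HFD by 1.52 ± 0.39 (adjusted p = 0.0146). With the regulatory T cell score as a covariate the difference of Tnfrsf9 was 0.26 in the opposite direction (adjusted p = 0.826). At 8 weeks the Tnfrsf9 medians were 6.16 TPM on CHOW and 5.12 TPM on HFD. From 8 to 20 weeks Tnfrsf9 changed by 0.84 ± 0.44 on CHOW (adjusted p = 0.445) and by -0.41 ± 0.37 on HFD (adjusted p = 0.519). Neither change was called. The ratio of Tnfsf9 to Tnfrsf9 TPM was 8.11 to 57.8 on CHOW and 95.0 to 366 on HFD at 20 weeks. At 34 weeks the same ratio was 17.98 to 115 on CHOW and 11.2 to 123 on HFD, so that the diets overlapped.

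**Figure D3:**
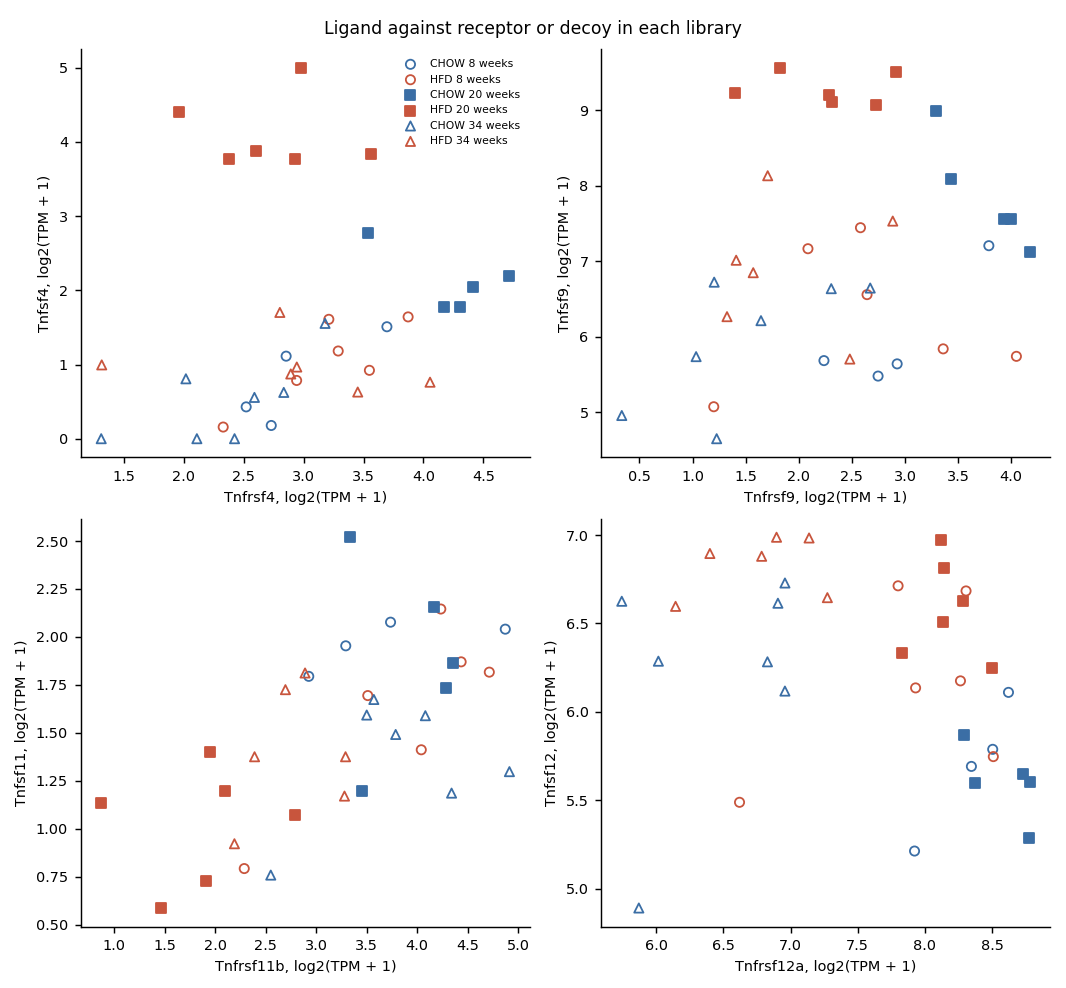
Ligand level against the level of its receptor or decoy in each library, both as log2(TPM + 1), for 4 pairs, with colour for diet, marker shape for weeks on the diet and filled squares for 20 weeks. The HFD 20 week libraries lie apart from the CHOW 20 week libraries in the Tnfsf4 and Tnfrsf4 panel and in the Tnfsf9 and Tnfrsf9 panel, with more ligand and less receptor.

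GITR, encoded by Tnfrsf18, is a costimulatory receptor that regulatory T cells carry at rest. Tnfrsf18 was at 16.1, 15.5, 17.8, 14.5 and 21.6 TPM on CHOW at 20 weeks. On HFD it was at 6.40 to 9.15 TPM with a median of 7.06 TPM. The groups did not overlap and were each tight, and Tnfrsf18 was lower on HFD by 1.11 ± 0.17 (adjusted p = 0.000292). With the regulatory T cell score as a covariate the difference was -0.57 (adjusted p = 0.354), and it was -1.12 with the lipid-associated macrophage score (adjusted p = 0.191). Its ligand GITRL, encoded by Tnfsf18 (chr1:161494655-161505290), was near the limit of detection, at 0.267 to 0.999 TPM on CHOW and 0.410 to 0.891 TPM on HFD (difference 0.05 ± 0.21, adjusted p = 0.909). The antisense gene Gm16008 overlaps Tnfrsf18 and shares 21.9% of the 31-base words of its transcripts on the opposite strand. Gm16008 was at 0 to 8.23 TPM over all libraries. The library kit keeps the strand, but no source used here says whether the quantification took it into account.

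The RANK axis holds a ligand, a signalling receptor and a decoy. RANKL (Tnfsf11, chr14:78277445-78308043) binds RANK (Tnfrsf11a, chr1:105780718-105847981), which drives osteoclast formation and also sits on macrophages, and osteoprotegerin (Tnfrsf11b, chr15:54250619-54278484) is a secreted decoy that captures RANKL. Tnfrsf11b was at 16.99, 9.93, 19.5, 18.5 and 9.06 TPM on CHOW at 20 weeks. On HFD it was at 0.829 to 5.92 TPM with a median of 2.82 TPM. All HFD libraries were below the lowest CHOW library. The difference of -2.07 ± 0.41 on the log2 scale (adjusted p = 0.00237) was the largest negative one among the members. With the mesothelial score as a covariate the difference of Tnfrsf11b was -0.51 (adjusted p = 0.760).

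Tnfrsf11a was higher on HFD where the decoy was lower. It was at 6.08, 11.3, 4.10, 6.32 and 4.30 TPM on CHOW at 20 weeks, with CHOW library 2 the highest, and at 10.7 to 14.5 TPM on HFD (median 12.4 TPM). CHOW library 2 entered the HFD range and the other CHOW libraries did not. The difference was 0.95 ± 0.28 (adjusted p = 0.0308), and the call was lost without CHOW library 3 (adjusted p = 0.0880), CHOW library 4 (0.0612), CHOW library 5 (0.0879), HFD library 2 (0.0544) or HFD library 3 (0.0575), and with all genes tested without a filter (0.0564). Leaving out the libraries with seminal vesicle or germ cell transcripts also ended it (0.0957). With the lipid-associated macrophage score as a covariate it was -0.37 (adjusted p = 0.660). The ligand Tnfsf11 was low, at 3.45, 1.29, 2.64, 2.33 and 4.73 TPM on CHOW and 0.502 to 1.64 TPM on HFD (median 1.15 TPM). Here CHOW library 2 lay inside the HFD range. Tnfsf11 was lower on HFD by 0.88 ± 0.24 (adjusted p = 0.0212), and the call was lost without CHOW library 5 (adjusted p = 0.0749). With the lipid-associated macrophage score as a covariate its difference was 0.23 (adjusted p = 0.758). The ratio of Tnfsf11 to Tnfrsf11b TPM had a median of 0.135 on CHOW and 0.338 on HFD at 20 weeks, and its ranges (0.126 to 0.523 and 0.186 to 1.44) overlapped.

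Some genes that RANK signalling switches on in osteoclasts moved in this contrast too. Of the 9 on the list, 7 were tested and 4 were called higher on HFD at 20 weeks, with none lower and a median of 1.28 on the log2 scale. Over all genes, 9.32% were called higher. The other tested genes of the list were not called. When single libraries were left out, 4 stayed called higher and up to 1 was called lower. Atp6v0d2, a proton pump subunit, was higher on HFD by 4.25 ± 0.58 (adjusted p = 0.000116). Ctsk, the collagen-degrading cathepsin K, had a mean of 644 TPM on HFD and 132 TPM on CHOW. Acp5, the tartrate-resistant acid phosphatase, was at 218 and 56.1 TPM, and Dcstamp, a fusion protein, at 10.4 and 3.90 TPM. The lipid-associated macrophage list was higher in the same libraries, and these genes are also known from lipid-laden macrophages.

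TWEAK (Tnfsf12, chr11:69686250-69695849) is a ligand made by macrophages and other cells, and its receptor Fn14 is encoded by Tnfrsf12a (chr17:23675445-23677468). Tnfsf12 was at 57.4, 47.4, 47.6, 49.1 and 37.9 TPM on CHOW at 20 weeks. On HFD it was at 75.1 to 125 TPM with a median of 93.9 TPM. Every HFD library exceeded every CHOW library, and the difference was 0.98 ± 0.21 (adjusted p = 0.00398). With the lipid-associated macrophage score as a covariate it was 0.32 (adjusted p = 0.668). Tnfrsf12a was at 313 to 439 TPM on CHOW and 227 to 360 TPM on HFD, a difference of -0.42 ± 0.24 that did not pass the test (adjusted p = 0.248). The read-through gene Tnfsfm13 spans Tnfsf12 and Tnfsf13 and shares 47.4% of the 31-base words of Tnfsf12 and 58.4% of those of Tnfsf13. Tnfsfm13 was at 11.7 to 63.7 TPM, so the split of reads among these 3 genes is uncertain.

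LIGHT (Tnfsf14) is a ligand of activated T cells and dendritic cells, and HVEM, a receptor of LIGHT, is encoded by Tnfrsf14 (chr4:154921933-154928563). Tnfsf14 was at 29.2, 21.4, 27.9, 38.5 and 25.4 TPM on CHOW at 20 weeks. On HFD it was at 7.16 to 11.4 TPM with a median of 9.16 TPM. The groups were well separated, and Tnfsf14 was lower on HFD by 1.54 ± 0.27 (adjusted p = 0.000931). At 8 weeks its medians were 12.3 TPM on CHOW and 11.7 TPM on HFD. From 8 to 20 weeks it changed by 0.93 ± 0.30 on CHOW (adjusted p = 0.163) and by -0.21 ± 0.26 on HFD (adjusted p = 0.652). Neither change was called. With the regulatory T cell score as a covariate the diet difference at 20 weeks was -0.55 (adjusted p = 0.508), and it was -1.60 with the lipid-associated macrophage score (adjusted p = 0.243). Tnfrsf14 was at 7.85 to 12.0 TPM on CHOW and 4.08 to 17.3 TPM on HFD, and its difference of -0.18 ± 0.29 was smaller than its error (adjusted p = 0.725).

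**Figure D4:**
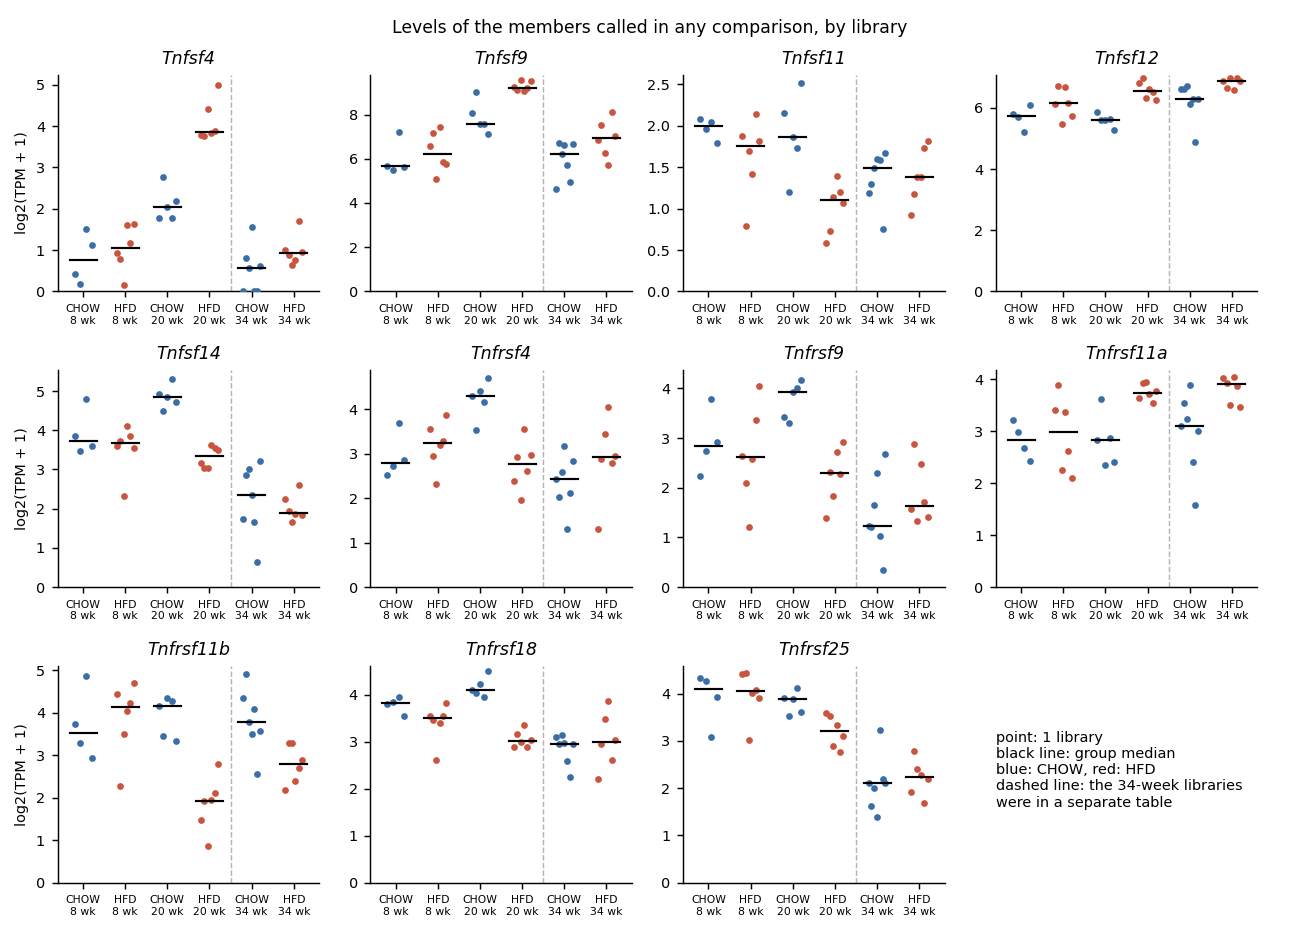
Level of the 11 members called in at least 1 comparison, as log2(TPM + 1), with 1 point per library, the group median as a black line, CHOW in blue and HFD in red. Tnfsf4, Tnfsf9 and Tnfsf12 were higher in all HFD 20 week libraries than in all CHOW 20 week libraries, and Tnfsf14, Tnfrsf9, Tnfrsf11b and Tnfrsf18 were lower.

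The remaining members did not pass the test at 20 weeks. Tnfrsf1a was at 342, 349, 340, 314 and 300 TPM on CHOW and 228 to 289 TPM on HFD, so its groups did not overlap, but the difference was -0.33 ± 0.15 (adjusted p = 0.127). Tnfrsf1b was at 260 to 579 TPM on CHOW and 304 to 456 TPM on HFD (difference -0.06 ± 0.33). Both are receptors of TNF, whose transcript is not named by the rule. Among the B cell survival genes, the ligand Tnfsf13 (APRIL) had means of 18.6 ± 2.26 TPM (SD, n = 5) on CHOW and 20.9 ± 2.19 TPM (SD, n = 6) on HFD, and Tnfsf13b (BAFF) had means of 8.32 and 6.06 TPM. Their receptors Tnfrsf13b (TACI) and Tnfrsf17 (BCMA) had means of 5.502 and 6.72 TPM on CHOW and 5.91 and 4.41 TPM on HFD. Tnfrsf13c, the BAFF receptor, was at 1.80 to 4.08 TPM on CHOW and 1.04 to 1.55 TPM on HFD, without overlap, and its difference was -0.63 ± 0.25 (adjusted p = 0.0946). The overlapping antisense gene Tnfsf13os was at 0.690 to 8.60 TPM on CHOW and 2.48 to 7.52 TPM on HFD.

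The ligand TRAIL (Tnfsf10) had a mean of 3.82 TPM on CHOW and 5.54 TPM on HFD at 20 weeks, and its death receptor Tnfrsf10b had means of 52.1 and 35.7 TPM. Neither passed the test (adjusted p = 0.322 and 0.328). The mouse decoy receptors of TRAIL, Tnfrsf22 and Tnfrsf23, lie side by side on chromosome 7 with Tnfrsf26. Tnfrsf22 had means of 12.5 TPM on CHOW and 11.2 TPM on HFD, Tnfrsf23 of 6.33 and 5.38 TPM and Tnfrsf26 of 3.52 and 2.93 TPM. Tnfrsf22 and Tnfrsf23 share 1033 of their 31-base words, 25.5% of those of Tnfrsf22 and 26.6% of those of Tnfrsf23, so their separate values are uncertain. Tnfrsf21, a death receptor known from neurons and T cells, had means of 10.0 and 13.5 TPM (adjusted p = 0.262). CD30 (Tnfrsf8) and its ligand (Tnfsf8) were near 1 TPM, at 1.38 to 1.96 and 0.487 to 2.95 TPM on CHOW and at 0.746 to 1.55 and 0.226 to 0.665 TPM on HFD. DR3 (Tnfrsf25, chr4:152115934-152120119), a costimulatory receptor known from T cells, was at 10.6 to 16.3 TPM on CHOW and 5.78 to 10.99 TPM on HFD (difference -0.61 ± 0.25, adjusted p = 0.0981). Its ligand TL1A (Tnfsf15) and the orphan receptor Tnfrsf19 failed the filter on low values and were not tested, at 0 to 1.23 TPM and 0 to 1.64 TPM over all libraries.

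**Figure D5:**
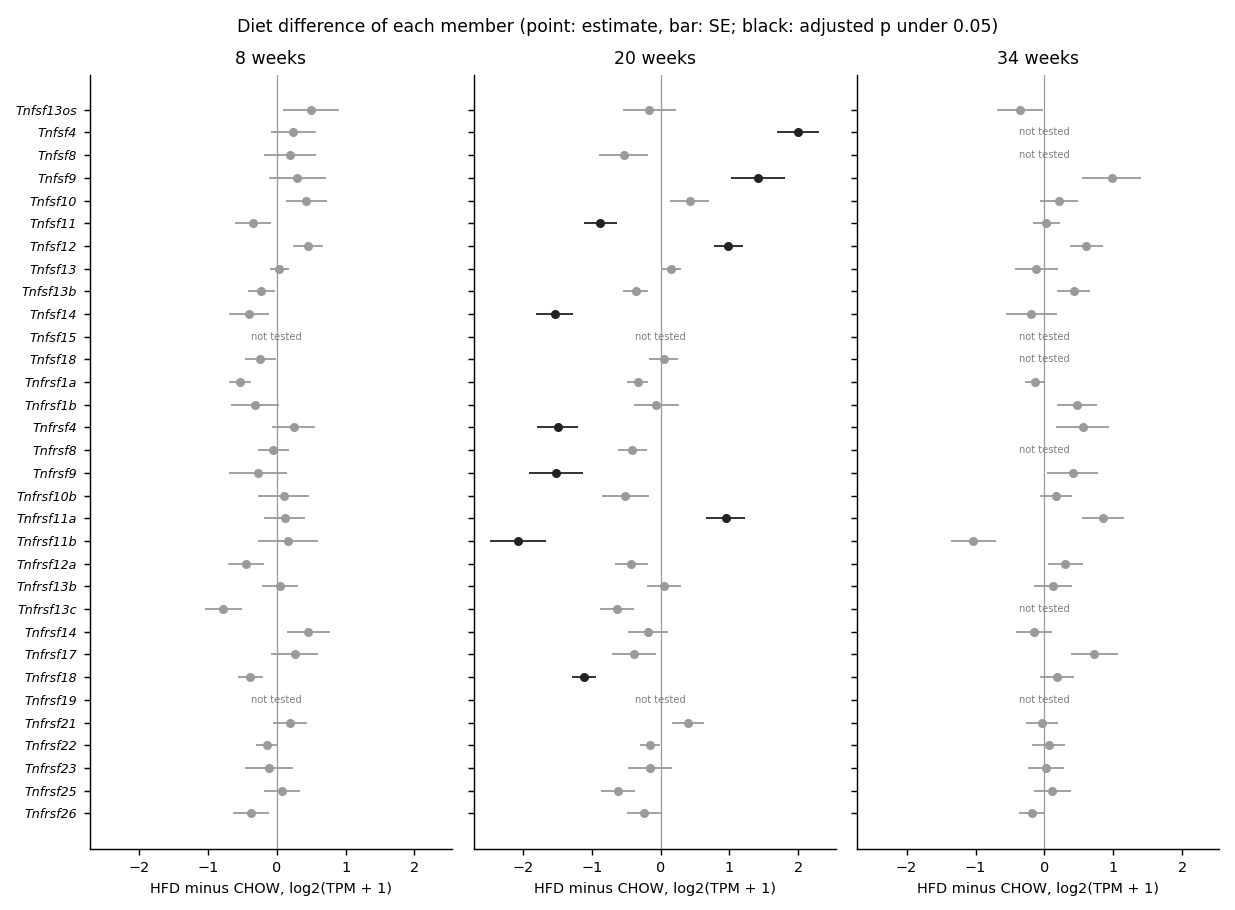
Difference between HFD and CHOW for each member at 8, 20 and 34 weeks on the log2(TPM + 1) scale, with points for the estimate, bars for its SE and black for members called. Black points appear at 20 weeks only, with 4 to the right of 0 and 6 to the left.

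At 8 weeks on the diets no member differed by the test. None of 30 members was called and 3 had an unadjusted p under 0.05, beside 4 of 16808 genes called (0.0238%) and 1630 genes with an unadjusted p under 0.05 in limma. The 3 smallest p-values were those of Tnfrsf1a, Tnfrsf13c and Tnfrsf18. Tnfrsf1a was at 318, 394, 295 and 327 TPM on CHOW and at 145 to 300 TPM on HFD (median 249 TPM), where HFD library 3, the one with seminal vesicle transcripts, was the lowest. The difference was -0.53 ± 0.16 (adjusted p = 0.231). Tnfrsf13c was at 0.887 to 3.51 TPM on CHOW and 0.222 to 2.12 TPM on HFD (difference -0.78, adjusted p = 0.331). Tnfrsf18 was at 10.6 to 14.3 TPM on CHOW and 5.10 to 13.1 TPM on HFD (difference -0.38, adjusted p = 0.511). All 3 were overlapping between the diets. Of the 10 members called at 20 weeks, 8 had the same direction at 8 weeks, with Tnfrsf4 and Tnfrsf11b the exceptions, and none passed the test there. Among these 8, Tnfsf4, Tnfsf9, Tnfrsf9 and Tnfrsf11a differed by less than their errors. The share of same directions over all genes called at 20 weeks is not given here.

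At 34 weeks again no member was called. Of 25 members tested, 4 had an unadjusted p under 0.05, while over all genes 34 of 13982 were called (0.243%) and 1848 had an unadjusted p under 0.05 in limma. Tnfrsf11b had the smallest p. It was at 4.86 to 29.1 TPM on CHOW (median 12.8 TPM) and at 3.56 to 8.78 TPM on HFD (median 5.94 TPM), a difference of -1.03 ± 0.32 (adjusted p = 0.220). Only CHOW library 6 (4.86 TPM) lay inside the HFD range. Tnfrsf11a was at 1.97 to 13.8 TPM on CHOW (median 7.53 TPM) and 10.1 to 15.6 TPM on HFD (median 13.9 TPM), a difference of 0.85 ± 0.30 (adjusted p = 0.271). Tnfsf12 was at 28.6 to 105 TPM on CHOW (median 77.0 TPM) and 95.8 to 126 TPM on HFD (median 117 TPM), a difference of 0.61 ± 0.25 (adjusted p = 0.315). CHOW library 6 was the lowest of its group for all 3 genes, and its adipocyte list sum was the highest (70596 TPM). Without CHOW libraries 5, 6 and 7, the ones with high adipocyte sums, the differences were -1.35 for Tnfrsf11b, 0.37 for Tnfrsf11a and 0.31 for Tnfsf12 (adjusted p = 0.191, 0.568 and 0.497).

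Of the 10 members called at 20 weeks, 9 could be tested at 34 weeks, and 5 had the same sign there: Tnfsf9, Tnfsf12, Tnfsf14, Tnfrsf11a and Tnfrsf11b. The share of same signs over all genes called at 20 weeks is not given here. Tnfsf9 had medians of 73.2 TPM on CHOW and 121 TPM on HFD at 34 weeks (difference 0.98 ± 0.43, adjusted p = 0.348). The costimulatory receptors Tnfrsf4, Tnfrsf9 and Tnfrsf18 had the opposite sign. Tnfrsf4 had medians of 4.37 and 6.56 TPM, Tnfrsf9 of 1.34 and 2.12 TPM and Tnfrsf18 of 6.75 and 6.98 TPM, with differences of 0.56 ± 0.39, 0.41 ± 0.37 and 0.18 ± 0.25. The difference of Tnfsf11 was 0.03 ± 0.20, and Tnfsf14 was at 0.564 to 8.22 TPM on CHOW and 2.16 to 5.05 TPM on HFD, a difference of -0.19 ± 0.37 (adjusted p = 0.830), smaller than its error. The regulatory T cell list, called lower in 4 of 7 genes at 20 weeks, had none of 6 genes called at 34 weeks. Of the mast cell list 4 of 8 genes were called higher at 34 weeks (median 2.48), and of the B cell list 1 of 8. Over all genes at 34 weeks, 0.243% were called in either direction. The lipid-associated macrophage list had none of 10 called, with summed levels of 4165 to 17081 TPM on CHOW and 12758 to 21074 TPM on HFD. The difference between the 20 and 34 week contrasts was not tested, because the libraries came from different tables.

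Time on the diet was compared within each diet between 8 and 20 weeks. These comparisons use the same 8 and 20 week libraries as the diet contrasts, so the values are given side by side and not as separate evidence. On HFD, 4 of 30 members were called (13.3%), against 8.78% of all genes. The 2 higher ones, Tnfsf4 and Tnfsf9, compare with 6.12% of genes called higher, and the 2 lower ones, Tnfrsf11b and Tnfrsf25, with 2.65% called lower. Only the first pair, 2 of 30 members (6.67%), had groups that did not overlap, against 4.17% of all genes. Tnfsf4 went from 0.115 to 2.12 TPM at 8 weeks (median 1.08 TPM) to 12.6 to 30.96 TPM at 20 weeks, a rise of 3.06 ± 0.29 (adjusted p = 3.88e-06). Tnfsf9 went from 32.7 to 173 TPM (median 74.8 TPM) to 535 to 755 TPM, a rise of 2.98 ± 0.37 (adjusted p = 3.33e-05). Both ligands also separated the diets at 20 weeks, in a contrast that uses the same HFD 20 week libraries.

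Tnfrsf11b fell with time on HFD. It was at 3.88 to 25.2 TPM at 8 weeks (median 16.6 TPM), with HFD library 2 the lowest, and the difference to 20 weeks was -2.02 ± 0.39 (adjusted p = 0.00226). Tnfrsf25 was at 7.09 to 20.7 TPM at 8 weeks (median 15.6 TPM) and 5.78 to 10.99 TPM at 20 weeks (median 8.33 TPM). Its lowest 8 week library was HFD library 3, the one with seminal vesicle transcripts, and this library alone fell inside the 20 week range. The difference of -0.78 ± 0.24 (adjusted p = 0.0438) was close to the threshold. It was lost without any one of 9 of the 12 HFD libraries (8 week libraries 1, 2, 4, 5 and 6 and 20 week libraries 3, 4, 5 and 6), with adjusted p from 0.0549 to 0.0927. It was lost as well with no filter (0.0760) and when only the HFD groups were fitted (0.0715). With the adipocyte score as a covariate only Tnfsf4 was called with time on HFD, and with the lipid-associated macrophage score Tnfsf4 (2.69, adjusted p = 0.00151) and Tnfsf9 (1.72, adjusted p = 0.0104) were. The lipid-associated macrophage list had 7 of 10 genes called higher with time on HFD, the macrophage list 5 of 10 and the mast cell list 8 of 8. Called lower were 6 of 10 adipocyte genes, all 4 hemoglobin genes (median -2.22), 2 of 7 regulatory T cell genes and 2 of 7 mesothelial genes (median -1.18). Over all genes, 6.12% were called higher and 2.65% lower. The mesothelial count ranged from 0 to 6 when single libraries were left out, and it was 6 without HFD 8 week library 2, the 8 week library with the lowest Tnfrsf11b and the lowest mesothelial sum (74.6 TPM).

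On CHOW no member passed the test between 8 and 20 weeks, and 8 of 30 had an unadjusted p under 0.05. Over all genes, 103 were called (0.613%) and 2104 had an unadjusted p under 0.05 in limma. Tnfsf9 was at 50.4, 43.6, 147 and 48.9 TPM at 8 weeks, and its difference to 20 weeks was 1.86 ± 0.43 (adjusted p = 0.0505). Library 3 at 8 weeks, the highest, was the only one to reach the 20 week range. Tnfrsf4 was at 4.74, 5.64, 12.0 and 6.23 TPM at 8 weeks (difference 1.28 ± 0.33, adjusted p = 0.0738), and Tnfsf4 at 0.346, 0.132, 1.85 and 1.16 TPM (1.30 ± 0.34, adjusted p = 0.0751). On HFD the difference of Tnfrsf4 with time had the opposite sign (-0.46 ± 0.28, adjusted p = 0.299), and it was called on neither diet. Without CHOW 8 week library 3, 4 members were called, Tnfsf9 (adjusted p = 0.0124), Tnfrsf4 (0.0306) and Tnfsf4 (0.0375) among them, and without CHOW 20 week library 2 Tnfrsf4 was called (0.0379). Groups did not overlap for 4 members (13.3%), against 6.28% of all genes. Tnfsf4, Tnfrsf8 and Tnfrsf18 were higher at 20 weeks and Tnfsf18 was lower.

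The interaction of diet and time, which asks whether the diet difference changed from 8 to 20 weeks, called no member, while 6 had an unadjusted p under 0.05. Over all genes 50 were called (0.297%) and 2318 had an unadjusted p under 0.05 in limma. The smallest p-values were those of Tnfrsf4 (-1.74 ± 0.43, adjusted p = 0.0967), Tnfsf4 (1.76 ± 0.44, adjusted p = 0.105) and Tnfrsf11b (-2.23 ± 0.59, adjusted p = 0.128). The interaction of Tnfrsf4 passed the test without HFD 8 week library 3 (adjusted p = 0.0431), CHOW 20 week library 2 (0.0339) or HFD 20 week library 4 (0.0425), and that of Tnfrsf11b without HFD 8 week library 2 (adjusted p = 0.0248). That of Tnfsf4 passed without CHOW 20 week library 2 (adjusted p = 0.0412). Of the regulatory T cell genes, Foxp3 and Klrg1 were called in the interaction (both -1.93, adjusted p = 0.0308 and 0.0391), and leaving out single libraries gave 0 to 3 calls in that list. With all libraries, a change in the diet difference from 8 to 20 weeks was not shown for any member.

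Family genes with other symbols and the signalling genes downstream were read from lists. At 20 weeks, 1 of 5 ligands tested, Ltb (lymphotoxin beta), was called lower on HFD, at means of 9.96 and 38.5 TPM (difference -1.91 ± 0.27). Of 6 receptors tested, Fas, a death receptor, was called lower (42.4 and 95.6 TPM, difference -1.17 ± 0.20). Of 17 adaptors and death signalling genes only the ubiquitin ligase Birc2 was called, lower by 0.50 on HFD, and of 12 NF-kB kinases and subunits Ikbkg and Tab1 were called, both higher (0.55 and 0.66). Among 22 NF-kB feedback and target genes, Tnip3 was higher (1.01) and Cxcl10 lower (-1.23), and the list's median was -0.01. The 2 calls among these 22 genes stand beside 14.3% of all genes called. When single libraries were left out, the ligand and receptor lists kept at least 1 call, while the calls of the adaptor, kinase and NF-kB target lists each fell to 0 in at least 1 fit.

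With time, in contrast, the NF-kB feedback and target genes were called on both diets. On HFD, 15 of 22 were called higher from 8 to 20 weeks and none lower, with a median of 1.44. Over all genes on HFD, 6.12% were called higher. Tnfaip2, a TNF-induced gene, rose by 2.54 ± 0.25, Vcam1, an adhesion molecule, by 1.82 ± 0.27, the chemokine Cxcl1 by 1.80 ± 0.32 and Tnfaip3, the feedback inhibitor A20, by 1.78 ± 0.26. On CHOW, 10 of 22 were called higher and none lower, with a median of 1.13, led by Cxcl10 (2.59), Il6 (2.57), Cxcl1 (2.44) and Ccl2 (2.35). Over all genes on CHOW, 0.613% were called in either direction. CHOW 8 week library 3 stood apart, with a summed level of these genes of 17342 TPM against 5343 to 5848 TPM in the other CHOW 8 week libraries and 17413 to 24376 TPM in those of 20 weeks. Without it 14 of 22 were called higher (median 1.57). The count was 6 without CHOW 8 week library 1 or 2 or CHOW 20 week library 3 or 5, and 4 without CHOW 8 week library 4 or CHOW 20 week library 4. On HFD it was 13 to 15 in such fits. The receptor Cd40 was called higher with time on both diets (1.72 on CHOW and 2.17 on HFD), as was the NF-kB subunit Rela (0.99 and 0.90), and Birc2 was called higher on CHOW (0.77). The lists of Rela and Birc2 had no call on CHOW without any one of CHOW 8 week libraries 1, 2 and 4 and CHOW 20 week libraries 3, 4 and 5. Tnf itself had a mean of 399 TPM at 8 weeks and 1562 TPM at 20 weeks on HFD (rise of 2.27 ± 0.38). On CHOW no ligand of its list was called with time. The list's sum was still 328 to 637 TPM at 8 weeks and 870 to 1946 TPM at 20 weeks on CHOW. None of the 5 ligands tested was called in the interaction, so a rise particular to HFD is not shown. Cflar (1.05), Birc3 (0.76) and Nfkb2 (0.74) were called higher with time on HFD, and so were Atp6v0d2 (2.07), Ctsk (1.89) and Acp5 (1.65) of the RANK targets. The mice aged as they stayed on the diet, so time on the diet and age cannot be told apart. Any difference in collection or handling between the times cannot be told from them either. The NF-kB feedback and target genes had median sums of 5824 TPM (CHOW) and 8095 TPM (HFD) at 8 weeks and 23264 and 20859 TPM at 20 weeks. At 34 weeks, in the other table, these medians were 5853 TPM (CHOW) and 6776 TPM (HFD), and the change between tables was not tested. At 34 weeks the only call in these lists was Dcstamp, with means of 10.6 TPM (HFD) and 2.28 TPM (CHOW) (1.99 ± 0.32, adjusted p = 0.0358), and it was lost without any one of CHOW libraries 1, 5 and 7 and HFD libraries 2, 3, 4, 5 and 6. At 8 weeks no gene of these lists was called.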

How the data were processed

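RNA of the SVF was sequenced after a stranded mRNA library preparation (TruSeq, NextSeq). The authors trimmed the reads with Trimmomatic, checked them with FastQC and MultiQC, quantified them with Salmon against GENCODE protein-coding and lncRNA transcripts of mm10, and deposited TPM summed to genes in a table for 8 and 20 weeks and another for 34 weeks. The sources used here name no versions of these tools. The authors tested counts with DESeq2, which TPM does not allow, so the values were tested as log2(TPM + 1) in limma 3.58.1 (R 4.3.3), with a mean per group, a trended prior and Benjamini-Hochberg adjustment over all genes tested. A gene was tested when it reached 1 TPM in at least 4 libraries (8 and 20 weeks) or 6 libraries (34 weeks). TPM keeps no depth, so the depth of each library is unknown. The fit was tested on simulated data.

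Members called in at least 1 of the 6 comparisons were given with the values of their libraries. For a comparison without calls the 3 smallest p-values were given, and up to 4 called genes with the largest change were named per pathway list. The members, the lists and the tests were chosen with earlier results of these data known. Cell type lists were scored as the mean log2(TPM + 1) of their genes, and the scores of the lipid-associated macrophage, regulatory T cell and mesothelial lists were added as covariates after the data were seen, as were the list counts without single libraries. Other alternatives were the pseudocount, the filter, the scaling, sample weights, the replicate number as a block, a fit of the compared groups only and leaving out libraries. Shared 31-base words were counted between the transcripts of genes, and upstream sequences came from RefSeq (GRCm38.p6).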

Additional observations from a re-analysis of the deposited data

Results flagged for a closer look

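For the 11 members called in at least 1 comparison, 66 groups were examined for a single library far from the others, and 6 were found. Chance gives about 1 in 20 groups. In HFD 8 week library 3, Tnfrsf18 was lowest at 5.10 TPM (next 9.54 TPM), Tnfrsf25 at 7.09 TPM (next 14.04 TPM) and Tnfsf14 at 3.99 TPM (next 10.6 TPM). That library held seminal vesicle transcripts at 123060 TPM, and their part in these low values was not tested. Tnfsf12 was lowest in CHOW 34 week library 6 at 28.6 TPM (next 68.4 TPM), where the adipocyte list summed to 70596 TPM, and the part of adipocyte RNA was not tested. Tnfsf4 was highest in HFD 34 week library 5 at 2.25 TPM (next 0.993 TPM). Tnfsf9 was highest in CHOW 8 week library 3 at 147 TPM (next 50.4 TPM).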

How the results depend on the processing

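The 10 members called at 20 weeks became 16 with sample quality weights, 2 with the adipocyte score as a covariate, 3 with the macrophage score, 0 with the lipid-associated macrophage score, 1 with the regulatory T cell score and 1 with the mesothelial score. Under the lipid-associated macrophage score the differences of Tnfrsf11a (-0.37), Tnfsf9 (-0.64) and Tnfsf11 (0.23) changed sign, as did that of Tnfrsf9 under the regulatory T cell score (0.26). These scores differ between the diets in the same libraries, so score and diet cannot be told apart in such fits. On HFD over time, 4 calls became 7 with quantile normalization, 7 with median-ratio scaling, 1 with the adipocyte score and 2 with the lipid-associated macrophage score. On CHOW over time, 0 calls became 1 with a pseudocount of 0.1 TPM, 1 with a filter of 5 TPM, 1 after rescaling without hemoglobin, germ cell and seminal vesicle genes, 3 with quantile normalization, 4 with median-ratio scaling, 9 with weights, 2 with the macrophage score, 3 with the lipid-associated macrophage score and 2 without HFD 8 week library 3 and HFD 20 week libraries 3, 4 and 5. The interaction went from 0 calls to 1 with quantile normalization, 1 with median-ratio scaling, 6 with weights and 1 without those libraries, and the 34 week contrast from 0 to 1 with weights (Tnfrsf11b, -1.30, adjusted p = 0.0141). The shares of all genes called in these and the other alternative fits are not given here. The shifts are therefore not shown to be particular to the family, and their cause was not tested. Leaving out single libraries gave 7 to 10 calls at 20 weeks, 3 to 6 on HFD over time, 0 to 4 on CHOW over time, 0 to 2 in the interaction, and 0 at 8 and at 34 weeks.

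With the replicate number as a block, 12 members were called at 20 weeks and 5 on HFD over time, and 0 in the other comparisons. The share of all genes called with the block is not given here either. Of 25 same-number pairs of libraries, 10 had correlated deviations over 0.1 and 9 correlated best with their own number (r from -0.10 to 0.40). These included replicates 1, 2, 3, 4 and 6 in the comparison of 20 with 8 weeks on HFD (r = 0.31, 0.31, 0.06, 0.40 and 0.26). The labels name no pairing, so the main fit used none. Structure shared by same-number HFD libraries was not tested beyond the block. TPM gives no depth, and values near 1 TPM (Tnfsf11, Tnfsf18, Tnfrsf13c, Tnfrsf8, Tnfsf8) carry a counting error that cannot be computed from it.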
